A study of Arabidopsis thaliana with 20 samples.

Results

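The genes described here are 38 splicing genes of Arabidopsis thaliana: 18 genes of the SR protein family, 11 LSM genes (LSM1 to LSM8, several in 2 copies) and 9 genes of core factors, namely U1-70K, the U2AF35 and U2AF65 genes, PRP8, BRR2A, SF1 and PRMT5. They were taken by gene identifier as family members, whatever their measured level, from the 33104 genes in the deposited tables. The SR genes are RSZ21 (AT1G23860), RSZ22 (AT4G31580) and RSZ22A (AT2G24590) with a zinc knuckle, RS2Z32 (AT3G53500) and RS2Z33 (AT2G37340) with a pair of them, SR30 (AT1G09140), SR34 (AT1G02840), SR34A (AT3G49430) and SR34B (AT4G02430), RS31 (AT3G61860), RS31A (AT2G46610), RS40 (AT4G25500) and RS41 (AT5G52040), and SC35 (AT5G64200), SCL28 (AT5G18810), SCL30 (AT3G55460), SCL30A (AT3G13570) and SCL33 (AT1G55310). The LSM genes are LSM1A (AT1G19120), LSM1B (AT3G14080), LSM2 (AT1G03330), LSM3A (AT1G21190), LSM3B (AT1G76860), LSM4 (AT5G27720), LSM5 (AT5G48870), LSM6A (AT3G59810), LSM6B (AT2G43810), LSM7 (AT2G03870) and LSM8 (AT1G65700). The core genes are U1-70K (AT3G50670), U2AF35A (AT1G27650), U2AF35B (AT5G42820), U2AF65A (AT4G36690), U2AF65B (AT1G60900), SF1 (AT5G51300), PRP8 (AT1G80070), BRR2A (AT1G20960) and PRMT5 (AT4G31120). All 38 had an FPKM (fragments scaled by transcript length and library size) of at least 1 in at least 2 libraries, as did 19311 genes in all, and these were tested. The 20 libraries were poly-A RNA of whole leaves from 4-week plants of Col-0, the wild type, or ilp1-1, with 2 libraries for each genotype and time. Plants grew in 10 h days at 100 µmol photons per m2 and s. Libraries of 0 h were taken after 2 h of that light, and libraries of 4, 8 and 16 h followed under continuous light at 500 µmol. Those of 30 h were taken after 24 h of the strong light and a further 6 h at 100 µmol. Both genotypes had the same light. No library of 4, 8 or 16 h has a counterpart at the same hour in plants kept at 100 µmol, and those of 30 h followed the strong light, so in the changes from 0 h the light and the hour of day cannot be told apart. The labels name no other allele or agent, and do not say whether the 2 libraries of a group came from separate plants or pools, so the p-values cover the spread between these libraries, which may be technical. In whole leaves, fewer cells of a type and less RNA per cell cannot be told apart.

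Pre-mRNA splicing is carried out by the spliceosome, which is assembled on each intron from small nuclear ribonucleoproteins. SR proteins carry RNA recognition motifs and a tail rich in arginine and serine, bind exons, and help to recruit U1 to the start of an intron and U2AF to its end. Many plant SR genes are themselves alternatively spliced, and their transcripts vary with light. LSM2 to LSM8 form a nuclear ring on U6 RNA, while LSM1 takes the place of LSM8 in a cytoplasmic ring that promotes decapping of mRNA. ILP1, the gene named by the mutant, encodes a partner of the spliceosome disassembly factor NTR1.

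Each library held 11.4 to 19.0 M recovered reads. ILP1 itself showed no fall in ilp1-1 libraries: it ranged from 2.63 to 3.88 FPKM in Col-0 and from 2.72 to 8.90 FPKM in ilp1-1, with a mean log2 difference of 0.44 ± 0.079 (adjusted p = 0.000194). The labels do not give the lesion, so ilp1-1 stands below for the libraries so labelled. The 4 leaf mesophyll markers RBCS1A, RBCS3B, LHCB1.1 and RCA summed to 28601 to 39244 FPKM in Col-0 and 16667 to 35149 in ilp1-1, and all 4 were called lower there in the mean of the 5 times. At single times, 2, 3, 2, 4 and 4 of them were called lower at 0, 4, 8, 16 and 30 h, and 1, LHCB1.1, was called higher at 8 h. The 3 guard cell markers summed to 7.18 to 23.9 and 9.14 to 29.1 FPKM, all 3 called higher in the mean in ilp1-1. The 3 vascular markers summed to 60.4 to 106 and 60.7 to 140 FPKM, with 2 called higher and 1 lower in the mean. The 4 meristem and flower markers summed to 2.17 to 4.44 and 1.61 to 6.57 FPKM with 1 of the 4 at 0 in all 20 libraries. Of the 2 that were tested, AG was called higher in ilp1-1 (0.57 ± 0.097, adjusted p = 0.000131). The 2 root markers summed to 6.00 to 17.4 and 7.04 to 12.4 FPKM with RHD6 at 0, and the 1 tested was not called. Plastid genes took 0.0995 to 0.453% of reads in the 4 ilp1-1 libraries of 4 and 8 h, against 0.0188 to 0.0349% in the other 16. The part of the markers and of the plastid reads in the genotype differences below was not tested.

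Levels per length spanned a wide range. LSM3B was the most abundant of the 38, with a median of 91.5 FPKM over 20 libraries, followed in order of the mean by LSM3A at a median of 63.3 FPKM, LSM5 at 59.5 and LSM4 at 58.9. The last 3 ranged from 50.3 to 79.2, 47.8 to 74.8 and 49.8 to 73.98 FPKM, so their order is within the spread. RSZ22A, at a median of 51.6 FPKM, was the highest SR gene by its mean over the libraries of both genotypes, 58.5 FPKM. SCL30 had a mean of 57.4 FPKM and a higher median, 55.1 FPKM. In Col-0 alone RSZ22A ranged from 38.3 to 51.7 FPKM and SCL30 from 48.8 to 67.6. At the low end stood RS31A at 6.93, SR34B at 4.90, U2AF35B at 1.79 and SCL28 at 1.74 FPKM. SCL28 rested on few reads, 1 to 68 per library, and its differences are given without a fold. Among the genes above 10 FPKM in the median, PRMT5 varied most over the 20 libraries, from 7.00 to 27.3 FPKM, and BRR2A least, from 11.4 to 14.98 FPKM.

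Promoter sequence is shown for the genes on which the results turn: RSZ22A and its close relative RSZ22, which differed in their response to genotype, and LSM8 and PRMT5, which changed most in Col-0 at 4 and 8 h. Each line gives the 250 bases before the start of the RefSeq gene in TAIR10.1, 5′ to 3′ on the gene's strand, and capitals mark matches, on either strand, to the motifs searched. RSZ22A lies on the plus strand of chromosome 2 and its window is chr2:10449381-10449630. RSZ22 lies on the plus strand of chromosome 4 (chr4:15306294-15306543). LSM8 lies on the minus strand of chromosome 1 (chr1:24436457-24436706) and PRMT5 on the minus strand of chromosome 4 (chr4:15136697-15136946).
RSZ22A: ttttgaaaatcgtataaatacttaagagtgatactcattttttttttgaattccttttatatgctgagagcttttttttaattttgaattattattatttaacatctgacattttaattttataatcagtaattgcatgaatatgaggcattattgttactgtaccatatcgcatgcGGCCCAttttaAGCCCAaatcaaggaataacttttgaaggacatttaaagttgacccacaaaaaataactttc
RSZ22: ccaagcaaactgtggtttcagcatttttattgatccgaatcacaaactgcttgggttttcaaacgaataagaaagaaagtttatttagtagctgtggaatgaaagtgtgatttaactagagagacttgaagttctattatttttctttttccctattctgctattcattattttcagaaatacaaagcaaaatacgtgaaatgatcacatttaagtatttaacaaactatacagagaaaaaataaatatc
LSM8: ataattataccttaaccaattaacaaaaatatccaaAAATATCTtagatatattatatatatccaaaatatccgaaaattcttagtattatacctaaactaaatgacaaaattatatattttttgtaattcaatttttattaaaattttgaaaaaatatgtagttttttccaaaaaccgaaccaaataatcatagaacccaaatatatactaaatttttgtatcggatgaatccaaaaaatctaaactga
PRMT5: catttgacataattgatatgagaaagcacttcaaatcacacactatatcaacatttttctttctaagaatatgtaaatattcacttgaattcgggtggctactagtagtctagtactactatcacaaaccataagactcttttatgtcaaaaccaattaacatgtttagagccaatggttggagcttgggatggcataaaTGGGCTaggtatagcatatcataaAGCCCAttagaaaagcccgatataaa

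The capitals in RSZ22A are GGCCCA at position -73 and AGCCCA at -62, counted from the gene start, the reverse complements of TGGGCC and TGGGCT, the letters of the site II elements that TCP factors are known to bind. PRMT5 has TGGGCT at -50 and AGCCCA at -26. LSM8 has 1 evening element, AAATATCT, at -214, the letters known from evening-phased clock genes. RSZ22 had no match to any motif searched. TGGGCC (reverse complement GGCCCA) was in the windows of 15 of the 38 genes, or 39.5%, against 17.2% of the 18143 windows of the same length before nuclear protein-coding genes that were tested. TGGGCT, or AGCCCA on the other strand, was in 14, or 36.8%, against 14.7%, and one form or the other in 18, or 47.4%, against 23.1%. The evening element (AGATATTT) was in 5, or 13.2%, against 5.11%. The telo box AAACCCTA (TAGGGTTT) was in 1 of 38 and 3.63% of all, and the G-box CACGTG in 2 of 38 and 7.53% of all. Matches of different motifs shared bases in 1 of the 38 windows. A match is a description of the letters, and no test was made.

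Over the 5 times together, 11 of 18 SR genes were higher in ilp1-1, and most LSM and core genes were not called. Of the 38 genes, 17 were called higher and 1 lower in the mean of the 5 genotype differences (limma on log2(FPKM + 1), Benjamini-Hochberg adjusted p under 0.05 over all 19311 genes), that is 44.7% and 2.63%. Of all genes tested, 29.3% were called higher and 27.8% lower, or 57.2% in either direction. The median log2 difference of the 38 was 0.093, and that of all genes tested 0.013. No SR gene was called lower. Called were 4 of 11 LSM genes higher and 1 lower, and 2 of 9 core genes higher and 0 lower. The shares called higher were 61.1% of SR, 36.4% of LSM and 22.2% of core genes, against the 29.3% of all genes. The 4 highest differences were those of RSZ22A at 0.71 ± 0.036 (adjusted p = 2.14e-10), SCL28 at 0.69 ± 0.15 (adjusted p = 0.00103), RS2Z32 at 0.44 ± 0.037 (adjusted p = 6.03e-08) and SC35 at 0.41 ± 0.042 (adjusted p = 5.63e-07), each ± its SE. LSM4 was the one gene called lower, at -0.12 ± 0.040 (adjusted p = 0.0197). When the libraries were scaled by their total reads instead of the authors' factors, the median of all genes in this comparison moved from 0.013 to 0.16 on the log2 scale, 12420 of 19311 genes were called, 74.1% of them higher against 51.3% before, and 34 of the 38 were called, 34 higher and 0 lower. The differences below are on the authors' scaling.

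**Figure D1:**
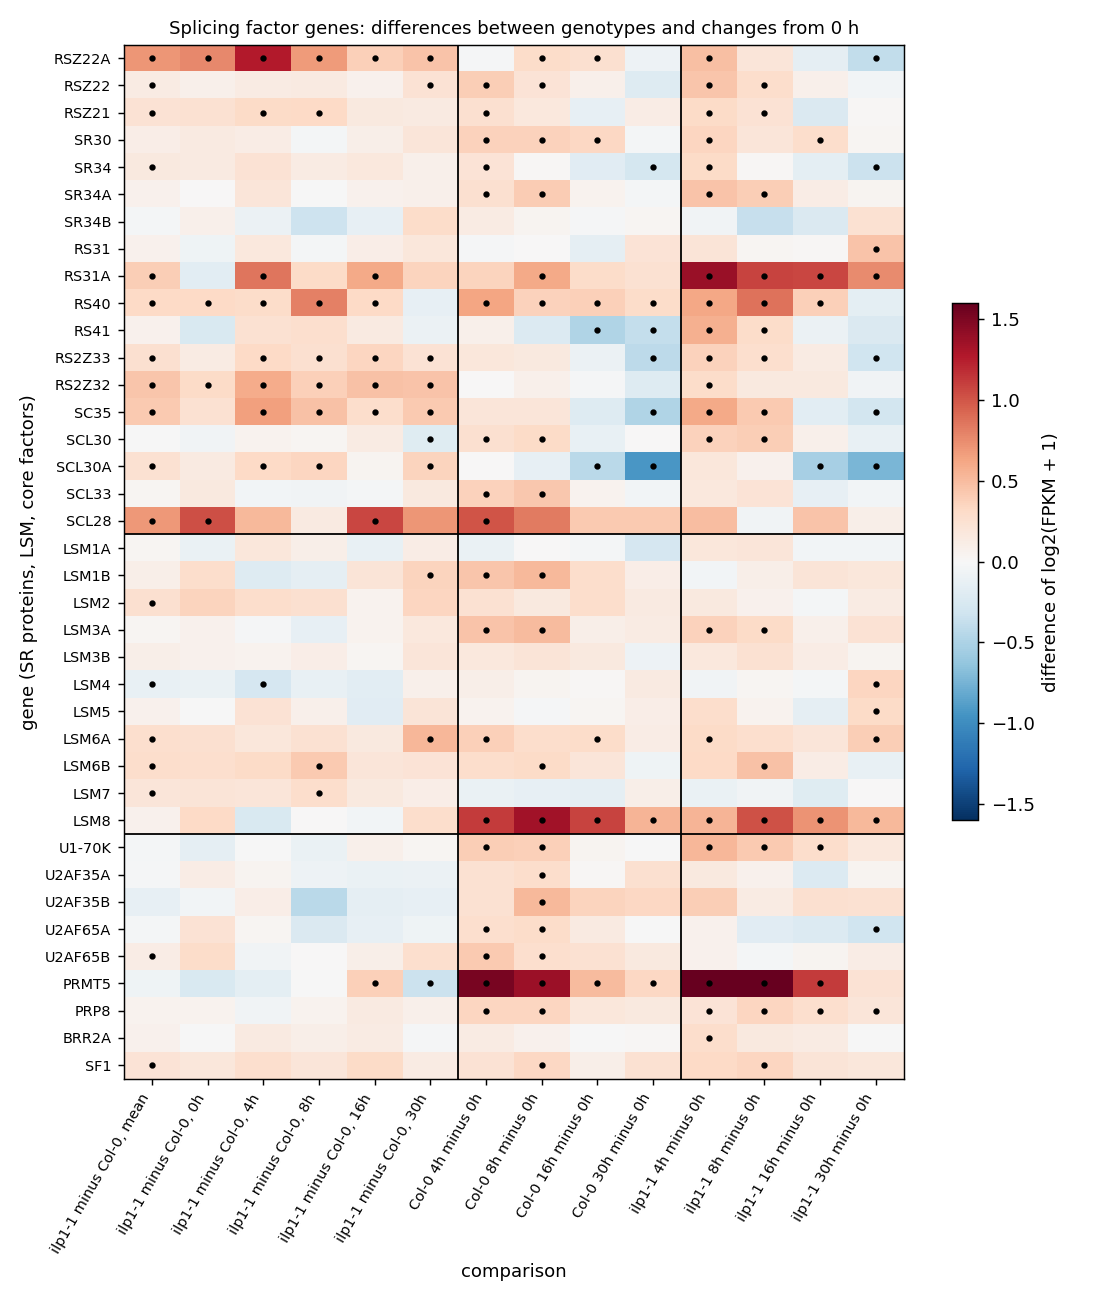
Differences of log2(FPKM + 1) for the 38 genes (rows, in 3 blocks of SR, LSM and core genes) in 14 comparisons (columns), in blocks of ilp1-1 minus Col-0, Col-0 times minus 0 h and ilp1-1 times minus 0 h; red is higher, blue is lower, and a dot marks an adjusted p under 0.05. The RSZ22A row is red and dotted in all 6 genotype columns, and PRMT5 has the highest value of the 38 in the 4 h and 8 h columns of both genotypes, 1.52 and 1.37 in Col-0 and 1.60 in each column of ilp1-1.

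**Figure D2:**
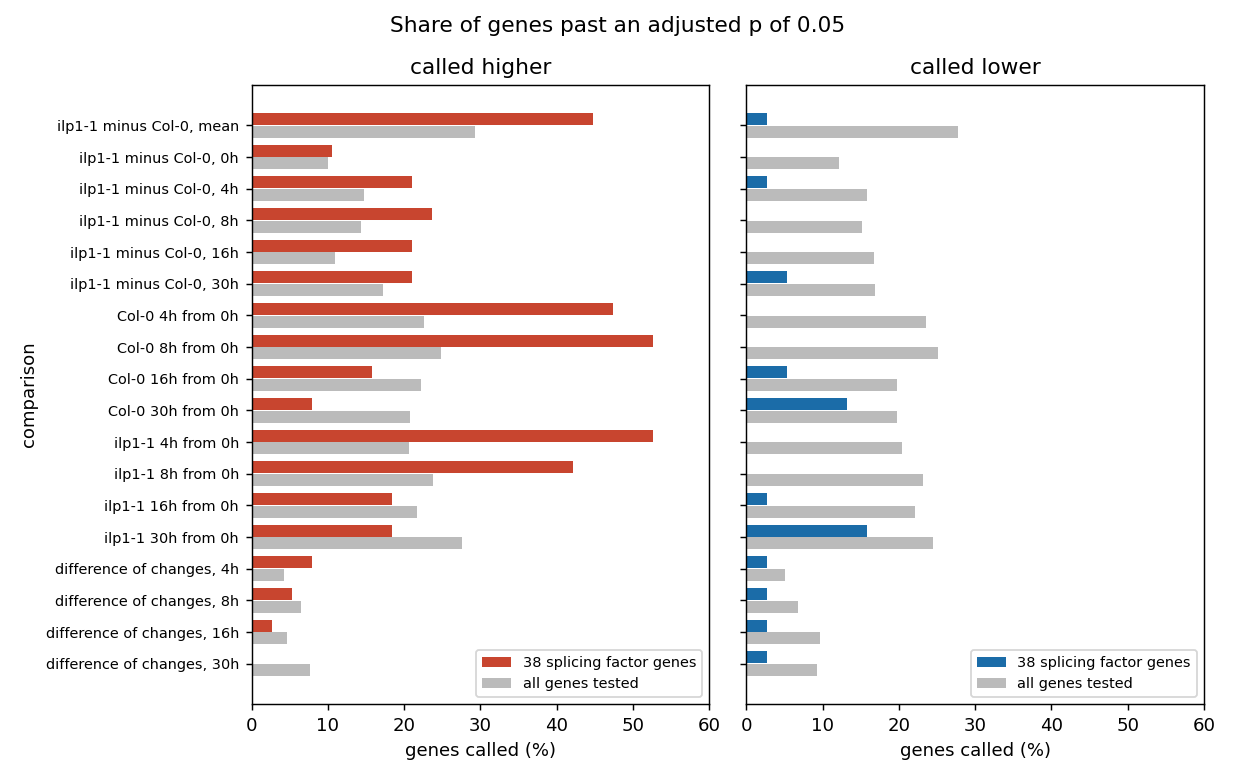
Share of genes (%, horizontal axis) called higher (left panel) and lower (right panel) at an adjusted p of 0.05 in 18 comparisons, for the 38 splicing genes in colour and all 19311 genes tested in grey. For the mean of the genotype differences the coloured bars stand at 44.7% and 2.63% and the grey bars at 29.3% and 27.8%.

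RSZ22A encodes an SR protein with 1 RNA recognition motif and a zinc knuckle, related to human SRSF7, and lies at chr2:10449631-10451184 (TAIR10.1, plus strand). In Col-0 it stood at 38.5 and 43.1 FPKM at 0 h, 41.1 and 39.5 at 4 h, 51.7 and 48.3 at 8 h, 46.5 and 51.5 at 16 h and 38.3 and 38.7 at 30 h. In ilp1-1 it stood at 66.2 and 74.8 FPKM at 0 h, 97.9 and 99.00 at 4 h, 78.03 and 83.5 at 8 h, 62.00 and 65.7 at 16 h and 55.8 and 50.7 at 30 h. Both ilp1-1 libraries were above both Col-0 libraries at each of the 5 times, and the ilp1-1 level was highest at 4 h, when the Col-0 libraries were within their range of 0 h. The difference was called at every time: 0.77 ± 0.082 (adjusted p = 8.24e-06) at 0 h, 1.27 ± 0.082 (adjusted p = 2.56e-08) at 4 h, 0.68 ± 0.082 (adjusted p = 1.63e-05) at 8 h, 0.38 ± 0.082 (adjusted p = 0.00277) at 16 h and 0.46 ± 0.082 (adjusted p = 0.000462) at 30 h. These are 1.71-fold at 0 h and 2.41-fold at 4 h on the log2(FPKM + 1) scale, and 1.64-fold in the mean. RSZ22A was called in the mean under each of the 28 alternatives run for it, with a log2 difference of 0.54 to 0.88.

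RSZ22, its closest relative, moved far less with genotype. Col-0 libraries stood at 40.1 and 40.7 FPKM at 0 h, 53.5 and 53.1 at 4 h, 47.2 and 47.6 at 8 h, 45.1 and 40.9 at 16 h and 34.3 and 35.3 at 30 h. In ilp1-1 the values were 46.6 and 39.1 FPKM at 0 h, 60.7 and 56.6 at 4 h, 50.3 and 54.4 at 8 h, 46.97 and 43.4 at 16 h and 42.4 and 40.1 at 30 h. The genotypes overlapped at 0 h and 16 h and were apart at 4, 8 and 30 h, and the mean difference was 0.13 ± 0.037 (adjusted p = 0.00656). RSZ21, the other gene of this subfamily, was higher in ilp1-1 by 0.23 ± 0.042 (adjusted p = 0.000198) in the mean. Its Col-0 libraries stood at 14.5 and 15.9 FPKM at 0 h, 18.1 and 18.5 at 4 h, 17.3 and 16.9 at 8 h, 14.3 and 13.2 at 16 h and 15.3 and 17.9 at 30 h. The ilp1-1 libraries stood at 17.8 and 18.6 FPKM at 0 h, 21.9 and 23.7 at 4 h, 20.7 and 22.6 at 8 h, 15.6 and 15.2 at 16 h and 17.3 and 19.6 at 30 h. They were above Col-0 at every time except 30 h, where the groups overlapped, and the calls at single times were at 4 h (0.30) and 8 h (0.32). The 4 h call was lost without ilp1-1 4 h library 2 (0.25), Col-0 4 h library 1 (0.29) or Col-0 4 h library 2 (0.32), the 8 h call without ilp1-1 8 h library 2 (0.26), Col-0 8 h library 1 (0.33) or Col-0 8 h library 2 (0.30).

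RS2Z32 and RS2Z33 encode a plant-specific kind of SR protein with a pair of zinc knuckles. RS2Z32 stood in Col-0 at 46.4 and 44.1 FPKM at 0 h, 49.1 and 41.9 at 4 h, 50.3 and 45.9 at 8 h, 47.6 and 42.1 at 16 h and 38.04 and 40.3 at 30 h. In ilp1-1 it stood at 55.2 and 57.4 FPKM at 0 h, 67.4 and 71.01 at 4 h, 62.4 and 63.2 at 8 h, 61.6 and 63.5 at 16 h and 52.7 and 55.2 at 30 h. All 10 ilp1-1 libraries were above all 10 Col-0 libraries, at any time, and the difference was called at each of the 5 times, with 0.60 ± 0.082 at 4 h the highest and 0.31 ± 0.082 at 0 h the lowest. RS2Z33 stood in Col-0 at 39.7 and 35.6 FPKM at 0 h, 41.6 and 43.8 at 4 h, 40.3 and 43.6 at 8 h, 34.2 and 36.2 at 16 h and 27.9 and 27.8 at 30 h. In ilp1-1 it was at 42.1 and 40.5 FPKM at 0 h, 55.8 and 51.3 at 4 h, 51.6 and 48.7 at 8 h, 46.5 and 43.8 at 16 h and 35.1 and 30.6 at 30 h. The genotypes were apart at each time, with a mean difference of 0.26 ± 0.037 (adjusted p = 2.35e-05), and RS2Z33 was called at 4, 8, 16 and 30 h. Of these calls, RS2Z32 at 0 h was lost without ilp1-1 0 h library 2 (0.28) or Col-0 0 h library 2 (0.27). RS2Z33 was lost at 4 h without ilp1-1 4 h library 1 (0.26) or Col-0 4 h library 1 (0.29), at 8 h without ilp1-1 8 h library 1 (0.21), ilp1-1 8 h library 2 (0.29) or Col-0 8 h library 1 (0.20) and at 30 h without ilp1-1 30 h library 1 (0.13), Col-0 30 h library 1 (0.23) or Col-0 30 h library 2 (0.23).

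SC35 is the counterpart of human SRSF2, and the SCL genes encode SC35-like proteins with a charged extension. SC35 stood in Col-0 at 29.1 and 28.9 FPKM at 0 h, 33.7 and 32.8 at 4 h, 32.98 and 33.5 at 8 h, 25.8 and 24.3 at 16 h and 18.03 and 23.3 at 30 h. Its ilp1-1 libraries stood at 34.6 and 34.3 FPKM at 0 h, 52.2 and 53.9 at 4 h, 43.6 and 49.05 at 8 h, 30.4 and 30.8 at 16 h and 28.3 and 27.4 at 30 h. They were above Col-0 at each time, most at 4 h, where the difference was 0.66 ± 0.093 (adjusted p = 7.17e-05), and it was called at 4, 8, 16 and 30 h. The 16 h call (0.28) was lost without ilp1-1 16 h library 1 (0.29), ilp1-1 16 h library 2 (0.27), Col-0 16 h library 1 (0.32) or Col-0 16 h library 2 (0.24). SCL30A stood in Col-0 at 53.2 and 53.00 FPKM at 0 h, 54.6 and 52.2 at 4 h, 49.1 and 47.7 at 8 h, 44.4 and 34.3 at 16 h and 26.9 and 27.6 at 30 h. For ilp1-1 the values were 58.8 and 59.02 FPKM at 0 h, 69.6 and 64.5 at 4 h, 63.8 and 59.6 at 8 h, 40.9 and 39.7 at 16 h and 37.7 and 32.6 at 30 h. The genotypes overlapped at 16 h and were apart at the other times, with a mean difference of 0.24 ± 0.043 (adjusted p = 0.000209). Calls at 4, 8 and 30 h were each lost without 1 or more single libraries: at 4 h without ilp1-1 4 h library 1 (0.27), Col-0 4 h library 1 (0.35) or Col-0 4 h library 2 (0.29), at 8 h without ilp1-1 8 h library 1 (0.29), Col-0 8 h library 1 (0.36) or Col-0 8 h library 2 (0.32) and at 30 h without ilp1-1 30 h library 1 (0.25) or Col-0 30 h library 1 (0.33). SCL30 (-0.01 ± 0.028) and SCL33 (0.03 ± 0.043) were not called in the mean.

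SCL28 was the least abundant of the 38. At 0 h it held 18 and 1 reads in the Col-0 libraries and 43 and 26 in ilp1-1, or 0.877 and 0.0549 against 1.88 and 1.89 FPKM. Its difference was called at 0 h (1.04 ± 0.34, adjusted p = 0.0379) and 16 h (1.07 ± 0.34, adjusted p = 0.0272). The 0 h call was lost without ilp1-1 0 h library 1 (1.04), ilp1-1 0 h library 2 (1.03) or Col-0 0 h library 2 (0.62), and the 16 h call without ilp1-1 16 h library 2 (0.80) or Col-0 16 h library 1 (0.66).

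The RS genes encode plant-specific SR proteins with a pair of RNA recognition motifs. RS40 stood in Col-0 at 10.7 and 13.4 FPKM at 0 h, 19.2 and 19.1 at 4 h, 15.8 and 15.8 at 8 h, 16.2 and 15.6 at 16 h and 14.7 and 15.02 at 30 h. In ilp1-1 the gene stood at 15.2 and 15.02 FPKM at 0 h, 23.8 and 23.8 at 4 h, 27.7 and 29.04 at 8 h, 19.8 and 20.3 at 16 h and 13.1 and 13.8 at 30 h. The ilp1-1 libraries were above Col-0 at 0, 4, 8 and 16 h, with the widest gap at 8 h (0.81 ± 0.089, adjusted p = 7.08e-06), and below it at 30 h, where the difference of -0.13 ± 0.089 was not called. Its calls at 0, 4 and 16 h were less stable: at 0 h the call was lost without ilp1-1 0 h library 1 (0.30), ilp1-1 0 h library 2 (0.33) or Col-0 0 h library 1 (0.16), at 4 h without ilp1-1 4 h library 1 (0.30), ilp1-1 4 h library 2 (0.30), Col-0 4 h library 1 (0.31) or Col-0 4 h library 2 (0.29) and at 16 h without ilp1-1 16 h library 2 (0.30) or Col-0 16 h library 2 (0.29). RS31A, a gene of low level, stood in Col-0 at 4.28 and 4.56 FPKM at 0 h, 6.94 and 5.09 at 4 h, 8.37 and 6.25 at 8 h, 4.55 and 6.91 at 16 h and 5.97 and 4.86 at 30 h. The values in ilp1-1 were 4.23 and 3.43 FPKM at 0 h, 10.3 and 12.9 at 4 h, 8.34 and 10.12 at 8 h, 8.69 and 9.59 at 16 h and 7.12 and 7.20 at 30 h. Both ilp1-1 libraries were below Col-0 at 0 h and above it at 4, 16 and 30 h, the groups overlapped at 8 h, and there were calls at 4 h (0.85 ± 0.19, adjusted p = 0.00298) and 16 h (0.61 ± 0.19, adjusted p = 0.0241). The 16 h call was lost without ilp1-1 16 h library 1 (0.68), ilp1-1 16 h library 2 (0.55) or Col-0 16 h library 1 (0.36), and the mean call (0.39) without the 4 ilp1-1 libraries of 4 and 8 h (0.26). RS31A overlaps KIC by 35 bases on the opposite strand, and KIC averaged 162 FPKM; how reads were assigned by strand is not given in the sources used here. RS31 (0.07 ± 0.043) and RS41 (0.07 ± 0.045) were not called in the mean.

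The SR30 and SR34 genes encode relatives of human SRSF1. SR34 was higher in ilp1-1 by 0.15 ± 0.039 (adjusted p = 0.00379) in the mean, was called at no single time, and was not called without the 4 ilp1-1 libraries of 4 and 8 h (0.13). SR30 (0.10 ± 0.045), SR34A (0.07 ± 0.034) and SR34B (-0.03 ± 0.086) were not called.

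**Figure D3:**
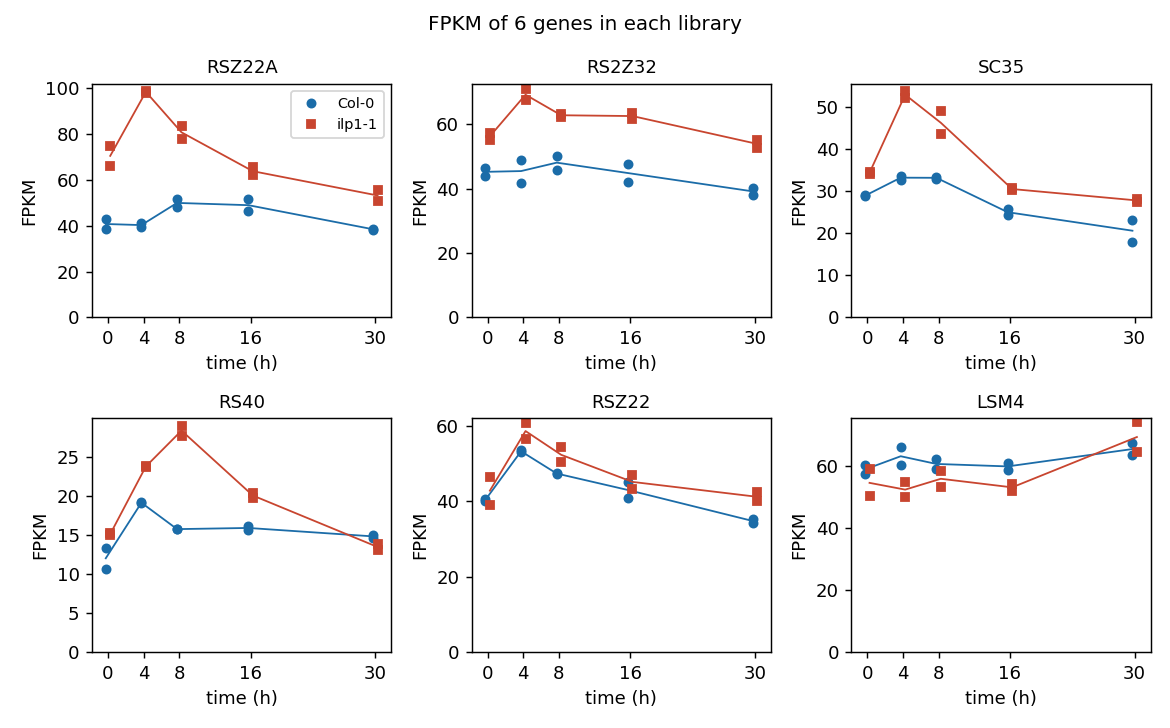
FPKM (vertical axis, from 0) against time in h for RSZ22A, RS2Z32, SC35, RS40, RSZ22 and LSM4; each point is 1 library, blue circles Col-0 and red squares ilp1-1, and lines join the means of the 2 libraries. RSZ22A in ilp1-1 reaches 97.9 and 99.0 FPKM at 4 h, above every Col-0 library, while the RSZ22 points of the 2 genotypes lie close together.

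The 5 LSM genes called in the mean all encode subunits that both rings share. LSM6A stood in Col-0 at 35.2 and 28.1 FPKM at 0 h, 41.4 and 40.96 at 4 h, 38.8 and 38.1 at 8 h, 39.4 and 38.4 at 16 h and 35.2 and 33.4 at 30 h. Its values in ilp1-1 were 32.7 and 43.8 FPKM at 0 h, 45.2 and 48.8 at 4 h, 45.1 and 46.4 at 8 h, 42.3 and 44.5 at 16 h and 48.3 and 51.6 at 30 h. The groups overlapped at 0 h and were apart from 4 h on, and the mean difference was 0.27 ± 0.051 (adjusted p = 0.000277). LSM6B (0.28 ± 0.056, adjusted p = 0.000515), LSM2 (0.26 ± 0.069, adjusted p = 0.00443) and LSM7 (0.19 ± 0.042, adjusted p = 0.00124) were higher as well. LSM4 was lower in the mean by the authors' scaling (-0.12) but 0.0567 when scaled by total reads, and its call was lost without the 4 ilp1-1 libraries of 4 and 8 h (-0.07). LSM8, which defines the nuclear ring, differed by 0.06 ± 0.051, and LSM1A and LSM1B, which define the cytoplasmic ring, by 0.04 ± 0.046 and 0.10 ± 0.058; none of the 3 was called in the mean. LSM3A, LSM3B and LSM5 were not called either, with differences of 0.03, 0.09 and 0.07. LSM5 overlaps KAT5 on the opposite strand by 160 bases, and KAT5 averaged 203 FPKM.

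Of the core genes, SF1, which binds the branch point, was higher by 0.22 ± 0.055 (adjusted p = 0.00348), and U2AF65B, the large U2AF subunit that binds the polypyrimidine tract, by 0.12 ± 0.046 (adjusted p = 0.0368). The U2AF65B call was lost under 11 alternatives, among them 10 that left out 1 library each: ilp1-1 0 h library 2 (0.11), ilp1-1 4 h library 2 (0.10), ilp1-1 8 h library 2 (0.10), ilp1-1 16 h library 1 (0.10), ilp1-1 30 h library 2 (0.12), Col-0 0 h library 1 (0.11), Col-0 4 h library 2 (0.10), Col-0 8 h library 2 (0.11), Col-0 16 h library 2 (0.11) or Col-0 30 h library 2 (0.11). The other 7 were not called in the mean. U1-70K, which bridges U1 to SR proteins, differed by -0.03 ± 0.041. For PRP8, the central U5 protein, the difference was 0.05 ± 0.034, and for BRR2A, the helicase that unwinds U4 from U6, 0.07 ± 0.039. The small U2AF subunit genes U2AF35A and U2AF35B gave -0.02 ± 0.049 and -0.13 ± 0.092, and U2AF65A -0.03 ± 0.044. PRMT5, which methylates arginines of Sm proteins, had a mean of -0.07 ± 0.046 made of differences of both signs.

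Taken by time, 4 of the 38 were called higher in ilp1-1 and 0 lower at 0 h, where 10.0% of all genes tested were called higher and 12.2% lower (22.2% in all). At 4 h these were 8 higher and 1 lower, against 14.7% and 15.8% (30.6% in all) of all genes. At 8 h they were 9 and 0, against 14.3% and 15.2% (29.5% in all). At 16 h they were 8 and 0, against 11% and 16.7% (27.7% in all), and at 30 h 8 and 2, against 17.2% and 16.8% (34.0% in all). As shares of the 38, the higher calls were 10.5, 21.1, 23.7, 21.1 and 21.1% at the 5 times in order. Across the times, RSZ22A and RS2Z32 were called higher at all 5, RS40, RS2Z33 and SC35 at 4, and SCL30A at 3, while 21 genes were called at no time. Of the 18 genes called in the mean, 14 had a difference of the same sign at all 5 times. Such tallies across the times were not made over all genes tested, so they describe the 38 alone.

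Some genes were called at a single time. LSM6A (0.53 ± 0.11, adjusted p = 0.00206), RSZ22 (0.24) and LSM1B (0.35) were called higher at 30 h, and SCL30 (-0.19) lower. LSM6B (0.42) and LSM7 (0.28) were called higher at 8 h, and LSM4 (-0.26) lower at 4 h. Except for LSM6A, each of these calls was lost when 1 library or another was left out. Such a fit has 1 library in a group, and some of the differences in brackets were larger than in the full fit. RSZ22 was lost without ilp1-1 30 h library 1 (0.20), ilp1-1 30 h library 2 (0.28), Col-0 30 h library 1 (0.22) or Col-0 30 h library 2 (0.26). LSM1B was lost without ilp1-1 30 h library 1 (0.31), ilp1-1 30 h library 2 (0.40), Col-0 30 h library 1 (0.31) or Col-0 30 h library 2 (0.39), and SCL30 without ilp1-1 30 h library 2 (-0.14) or Col-0 30 h library 1 (-0.15). SCL30 at 30 h was 0.0349 when scaled by total reads. LSM6B was lost without ilp1-1 8 h library 2 (0.35) or Col-0 8 h library 2 (0.20), LSM7 without ilp1-1 8 h library 2 (0.19), Col-0 8 h library 1 (0.30) or Col-0 8 h library 2 (0.26) and LSM4 without ilp1-1 4 h library 2 (-0.20) or Col-0 4 h library 2 (-0.20) or when scaled by total reads (-0.10).

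On the authors' scaling, PRMT5 was called in both directions between the genotypes. It stood in Col-0 at 8.18 and 8.80 FPKM at 0 h, 27.3 and 25.1 at 4 h, 23.4 and 23.5 at 8 h, 13.1 and 11.8 at 16 h and 10.97 and 10.9 at 30 h. In ilp1-1 the levels were 7.00 and 7.09 FPKM at 0 h, 22.8 and 24.00 at 4 h, 22.8 and 23.9 at 8 h, 15.7 and 17.2 at 16 h and 9.60 and 7.41 at 30 h. At 16 h both ilp1-1 libraries were above Col-0 (0.38 ± 0.10, adjusted p = 0.0135), and at 30 h both were below (-0.34 ± 0.10, adjusted p = 0.0194). The 16 h call was lost without ilp1-1 16 h library 2 (0.31) or Col-0 16 h library 2 (0.30), and the 30 h call without ilp1-1 30 h library 2 (-0.17), Col-0 30 h library 1 (-0.34) or Col-0 30 h library 2 (-0.34). Scaled by total reads, the 30 h difference was -0.13 and not called. PRMT5 overlaps another gene, AT4G31115, by 25 bases on the opposite strand.

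Under strong light, 18 of the 38 genes rose in Col-0 at 4 h and 20 at 8 h, and 0 fell. At 4 h, 18 of the 38 were called higher than at 0 h and 0 lower, or 47.4%, when 22.6% of all genes tested were called higher and 23.5% lower (46.1% in all). The median log2 change of the 38 was 0.25, against -0.04 for all genes. The calls took in 9 of 18 SR genes, 4 of 11 LSM genes and 5 of 9 core genes. At 8 h, 20 were called higher and 0 lower, against 24.9% and 25.1% (50.1% in all) of all genes. Of the 9 core genes, 8 were among them, all except BRR2A (0.07 ± 0.087). U2AF35B, 1 of these 8, stood at only 1.05 to 2.57 FPKM over all libraries. It overlaps IPK1, which averaged 20.1 FPKM, by 177 bases on the opposite strand. At 16 h the calls had shrunk to 6 higher and 2 lower, against 22.2% and 19.8% (42.0% in all). At 30 h, after the return to the lower light, there were 3 higher and 5 lower, against 20.8% and 19.7% (40.4% in all). All of these comparisons share the 2 Col-0 libraries of 0 h.

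In Col-0 PRMT5 and LSM8 had the highest changes at 4 and 8 h. PRMT5, whose 20 values stand above, rose in Col-0 by 1.52 ± 0.10 (adjusted p = 1.19e-08) at 4 h, or 2.86-fold, and by 1.37 ± 0.10 (adjusted p = 2.16e-08) at 8 h, and was still 0.50 up at 16 h and 0.33 at 30 h. All 8 later Col-0 libraries were above both of 0 h. LSM8 stood in Col-0 at 12.7 and 12.99 FPKM at 0 h, 28.8 and 29.2 at 4 h, 33.9 and 34.3 at 8 h, 26.7 and 29.96 at 16 h and 19.3 and 19.1 at 30 h. Its ilp1-1 levels were 14.2 and 18.7 FPKM at 0 h, 26.2 and 22.5 at 4 h, 32.6 and 35.7 at 8 h, 25.9 and 28.9 at 16 h and 24.97 and 22.5 at 30 h. Every later Col-0 library was above both libraries of 0 h, and the change was 1.11 ± 0.11 (adjusted p = 8.85e-07) at 4 h (2.16-fold), 1.34 at 8 h, 1.08 at 16 h and 0.55 at 30 h. LSM8 changed in ilp1-1 by 0.55 ± 0.11 (adjusted p = 0.00107), 1.02, 0.72 and 0.51 at the same times, each called. The PRMT5 call at 30 h in Col-0 was lost without Col-0 0 h library 1 (0.29), Col-0 30 h library 1 (0.33) or Col-0 30 h library 2 (0.34).

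RS40 rose in Col-0 by 0.64 ± 0.089 (adjusted p = 2.53e-05) and RSZ22 by 0.39 ± 0.083 (adjusted p = 0.00112) at 4 h. PRP8, the largest spliceosomal protein, stood in Col-0 at 15.1 and 16.3 FPKM at 0 h, 19.99 and 20.2 at 4 h, 20.5 and 19.8 at 8 h, 18.3 and 17.6 at 16 h and 18.03 and 17.2 at 30 h. The corresponding ilp1-1 values were 16.4 and 16.4 FPKM at 0 h, 19.5 and 18.96 at 4 h, 20.9 and 21.01 at 8 h, 20.9 and 18.9 at 16 h and 19.3 and 18.3 at 30 h. In Col-0 PRP8 rose by 0.34 ± 0.076 (adjusted p = 0.00176) at 4 h and 0.34 at 8 h, and the later libraries were all above both of 0 h. U1-70K stood in Col-0 at 20.1 and 22.9 FPKM at 0 h, 27.8 and 29.2 at 4 h, 30.2 and 26.7 at 8 h, 22.5 and 21.97 at 16 h and 21.6 and 21.3 at 30 h. Its levels in ilp1-1 were 20.5 and 18.3 FPKM at 0 h, 27.5 and 29.3 at 4 h, 25.4 and 27.1 at 8 h, 25.1 and 22.3 at 16 h and 21.7 and 22.1 at 30 h. Col-0 was high at 4 and 8 h (0.39 ± 0.091 (adjusted p = 0.00223) and 0.39) and within its range of 0 h at 16 and 30 h. SCL28 was also called at 4 h (1.01), on 25 and 30 reads, and lost without Col-0 0 h library 2 (0.59) or Col-0 4 h library 2 (0.89). At 8 h the next highest changes after PRMT5 and LSM8 were those of RS31A (0.61) and LSM1B (0.52), of which RS31A was lost without Col-0 0 h library 1 (0.57) or Col-0 8 h library 1 (0.42) and LSM1B without Col-0 8 h library 2 (0.40).

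At the later times the genes called lower in Col-0 were all SR genes, 11.1% of the 18 at 16 h and 27.8% at 30 h. Of all genes tested, 19.8% and 19.7% were called lower at these times. SCL30A fell in Col-0 by 0.43 at 16 h and by 0.94 at 30 h (adjusted p = 1.58e-06), from 53.2 and 53.00 to 26.9 and 27.6 FPKM. RS41 fell by 0.48 at 16 h, from 31.8 and 32.4 to 25.3 and 20.5 FPKM, and by 0.38 at 30 h. SC35 (-0.48) and RS2Z33 (-0.42) were lower at 30 h, and so was SR34 (-0.28), whose call was lost without Col-0 0 h library 2 (-0.22) or Col-0 30 h library 1 (-0.23) and when scaled by total reads (-0.18). The genes called higher at 16 h were LSM8, PRMT5, RS40 (0.38), SR30 (0.33), LSM6A and RSZ22A. Of these, RS40 was lost without Col-0 0 h library 1 (0.23), SR30 without Col-0 0 h library 1 (0.32), Col-0 0 h library 2 (0.33), Col-0 16 h library 1 (0.31) or Col-0 16 h library 2 (0.34), LSM6A without Col-0 0 h library 2 (0.14), Col-0 16 h library 1 (0.28) or Col-0 16 h library 2 (0.31) and RSZ22A without Col-0 0 h library 1 (0.18) or Col-0 16 h library 2 (0.19). RS40 remained called at 30 h (0.29), and that call was lost without Col-0 0 h library 1 (0.14), Col-0 30 h library 1 (0.31) or Col-0 30 h library 2 (0.27).

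In ilp1-1, too, genes rose at 4 and 8 h and 0 fell. At 4 h, 20 of the 38 were called higher than at 0 h and 0 lower, against 20.6% and 20.4% (41.0% in all) of all genes, and at 8 h 16 and 0, against 23.8% and 23.2% (47.0% in all). At 16 h there were 7 higher and 1 lower, against 21.7% and 22.1% (43.8% in all), and at 30 h 7 higher and 6 lower, against 27.6% and 24.5% (52.1% in all). PRMT5 rose by 1.60 ± 0.10 (adjusted p = 9.77e-09) at 4 h and 1.60 at 8 h, against 1.52 and 1.37 in Col-0. RS31A rose by 1.38 ± 0.19 (adjusted p = 2.29e-05) at 4 h and 1.08 at 8 h, against 0.36 (not called) and 0.61. RS40 rose by 0.62 and 0.87, against 0.64 and 0.37, the last lost without Col-0 0 h library 1 (0.22). SC35 rose by 0.61 at 4 h in ilp1-1, and its Col-0 change of 0.19 was not called. The difference between these 2 changes of SC35 was not called either. At 16 h the highest were PRMT5 (1.12), RS31A (1.07), LSM8 (0.72) and RS40 (0.39), and SCL30A was lower (-0.54).

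At 30 h, ilp1-1 was higher than at its 0 h in RS31A (0.76), LSM8 (0.51), RS31 (0.46) and LSM6A (0.39), among 7. It was lower in SCL30A (-0.73 ± 0.097, adjusted p = 1.2e-05), RSZ22A (-0.40), SR34 (-0.34) and RS2Z33 (-0.32), among 6. LSM6A was lost without ilp1-1 0 h library 1 (0.18) or ilp1-1 30 h library 2 (0.34), and RS2Z33 without ilp1-1 30 h library 2 (-0.23). Scaled by total reads, the falls of RSZ22A (-0.17), SR34 (-0.12) and RS2Z33 (-0.10) were not called, nor were those of SC35 (-0.08 against -0.30) and U2AF65A (-0.10 against -0.32), while SCL30A was (-0.51). LSM1A, LSM3B and SR34B were called in none of the 14 comparisons of the mean, the genotypes and the times.

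**Figure D4:**
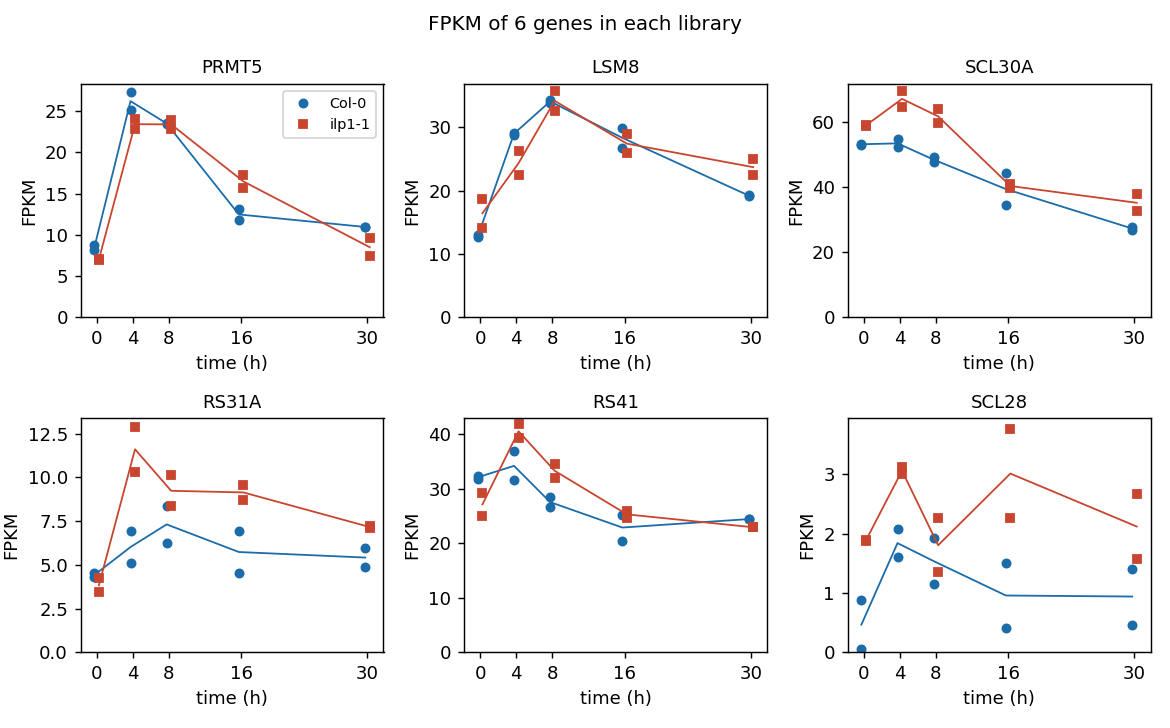
FPKM (vertical axis, from 0) against time in h for PRMT5, LSM8, SCL30A, RS31A, RS41 and SCL28; each point is 1 library, blue circles Col-0 and red squares ilp1-1, and lines join the means of 2 libraries. PRMT5 and LSM8 are lowest at 0 h in both genotypes and high at 4 and 8 h, and SCL30A is lowest at 30 h.

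A difference between genotypes in the change from 0 h was called for 10.5, 7.89, 5.26 and 2.63% of the 38 genes at 4, 8, 16 and 30 h. The first share was near that of all genes and the later ones were below it. At 4 h the difference of changes was called for 4 (3 higher and 1 lower in ilp1-1), when 4.22% of all genes were called higher and 5.12% lower (9.34% in all). At 8 h it was called for 3 (2 and 1), against 6.49% and 6.78% (13.3% in all). At 16 h it was called for 2 (1 and 1), against 4.60% and 9.59% (14.2% in all), and at 30 h for 1, lower, against 7.65% and 9.19% (16.8% in all). RSZ22A rose by 0.48 in ilp1-1 at 4 h and moved by -0.01 in Col-0, a difference of 0.49 ± 0.12 (adjusted p = 0.0134). PRMT5 stayed 1.12 above its 0 h level at 16 h in ilp1-1 and 0.50 above it in Col-0, a difference of 0.61 ± 0.15 (adjusted p = 0.0103). RS40 rose by 0.87 and 0.37 at 8 h, a difference of 0.49 ± 0.13 (adjusted p = 0.0163). The RSZ22A difference was lost without ilp1-1 0 h library 1 (0.41) or Col-0 0 h library 2 (0.41), the PRMT5 one without ilp1-1 16 h library 2 (0.55), and the RS40 one without ilp1-1 8 h library 2 (0.46) or Col-0 0 h library 2 (0.34).

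The family holds 11 pairs of related genes, and the balance within a pair was taken as the log2 ratio of (FPKM + 1) in the same library. RSZ22 and RSZ22A were level in Col-0 on average over the times and unequal in ilp1-1. RSZ22 made up 44.3 to 57.3% of their summed FPKM in Col-0, with a median of 48.9%. In ilp1-1 it made up 34.3 to 44.1%, with a median of 39.6%. All 10 ilp1-1 libraries were below all 10 Col-0 libraries in this share. The log2 ratio was -0.00331 ± 0.23 in Col-0 and -0.58 ± 0.19 in ilp1-1 (SD, n = 10), a difference of -0.58 (two-sided exact permutation of genotype within time, p = 0.000257, the smallest that 7776 relabellings can give; adjusted over 11 pairs, p = 0.00283). The 2 coding sequences are 84.8% identical over 585 aligned bases, with no shared run longer than 23 bases.

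The adjusted exact permutation p was under 0.05 for 5 of the 11 pairs. The ratio of RS2Z33 to RS2Z32 was -0.27 ± 0.18 in Col-0 and -0.46 ± 0.17 in ilp1-1 (SD, n = 10 libraries over 5 times). It was lower in ilp1-1 by 0.19 (adjusted p = 0.017) in an exact permutation test. For RS31 over RS31A the difference in an exact permutation test was -0.32 (adjusted p = 0.0283), for RS41 over RS40 -0.26 (adjusted p = 0.0283) and for SCL33 over SCL30A -0.21 (adjusted p = 0.0289). Each of these was below 0 at 4 of the 5 times and above 0 at 1. The libraries of the genotypes were apart at 4, 2 and 2 times in that order. RS41 made up a median of 62.7% of its summed FPKM with RS40 in Col-0 and 62.3% in ilp1-1. Of the 5 pairs, RS2Z33 and RS2Z32 were lost without ilp1-1 16 h library 2 (-0.17), and RS41 and RS40 without ilp1-1 16 h library 2 (-0.25). RS31 and RS31A were lost without ilp1-1 0 h library 1 (-0.29), ilp1-1 4 h library 1 (-0.36), ilp1-1 4 h library 2 (-0.28), ilp1-1 8 h library 2 (-0.32), ilp1-1 16 h library 1 (-0.33), ilp1-1 16 h library 2 (-0.31) or Col-0 4 h library 2 (-0.26). SCL33 and SCL30A were lost without ilp1-1 4 h library 1 (-0.19), ilp1-1 8 h library 2 (-0.21), ilp1-1 16 h library 2 (-0.20), ilp1-1 30 h library 1 (-0.17), Col-0 4 h library 2 (-0.19), Col-0 16 h library 2 (-0.17) or Col-0 30 h library 2 (-0.21). U2AF65B over U2AF65A gave 0.15 (adjusted p = 0.0684) in the same exact permutation test. The other 5 pairs, SR34 with SR30, LSM1B with LSM1A, LSM3B with LSM3A, LSM6B with LSM6A and U2AF35B with U2AF35A, had differences of -0.11 to 0.06 that did not pass. Coding identity within the 11 pairs ran from 70.1 to 87.1%, with the longest shared run of 47 bases in RS41 and RS40, so reads in such runs could be counted for the wrong gene.

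**Figure D5:**
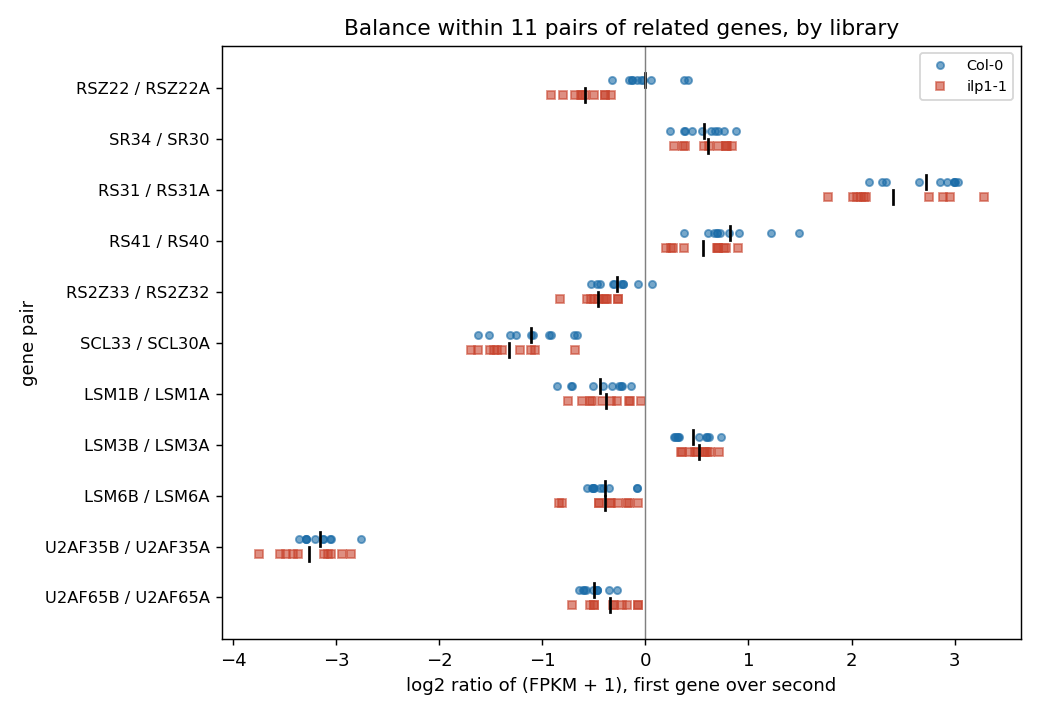
Log2 ratio of (FPKM + 1), first gene over second (horizontal axis), for 11 pairs of related genes; each point is 1 library, blue circles Col-0 and red squares ilp1-1, 10 each, and black bars mark the mean of each genotype. The RSZ22 / RSZ22A points of ilp1-1 all lie to the left of those of Col-0, with shares of 34.3 to 44.1% for RSZ22 against 44.3 to 57.3%.

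Further lists of splicing and decay genes were counted beside the 38. In the mean of the 5 times, 6 of 13 Sm ring genes, whose proteins form the core of U1, U2, U4 and U5, were called higher in ilp1-1 and 0 lower, among them SMD1A (0.95 ± 0.065), SMD3B (0.26 ± 0.035) and SME1 (0.28 ± 0.047). Of 8 partners of U1, all 8 were higher, with LUC7A (0.63 ± 0.044), PRP40B (0.72 ± 0.051) and LUC7RL (0.42 ± 0.047). Of 9 U2 genes, 6 were higher and 0 lower, with U2A (0.47 ± 0.033), SF3A3 (0.55 ± 0.041) and SAP49A (0.50 ± 0.041); SAP130A and SAP130B in that list are near-identical copies, and their counts are uncertain. Of 14 tested genes of the tri-snRNP and the helicases (15 listed), 12 were higher and 1, PRP43B (-0.14 ± 0.044), lower, with PRP31 (0.39 ± 0.039), PRP3 (0.49 ± 0.051) and DOT2 (0.44 ± 0.049). Of 10 SR protein kinase and SR-related genes, 6 were higher and 0 lower, with SR45A (0.30 ± 0.056), SRPK3B (0.24 ± 0.057) and SRPK1 (0.38 ± 0.092). Of 9 decapping and decay genes, 6 were higher and 0 lower, with DCP2 (0.50 ± 0.058), DCP1 (0.30 ± 0.052) and RH8 (0.30 ± 0.052). The medians of these 6 lists ran from 0.11 to 0.36 on the log2 scale, against 0.013 for all genes tested, of which 29.3% were called higher.

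In Col-0 at 4 h, when 22.6% of all genes were called higher and 23.5% lower, the Sm ring list held the most calls of these 6 lists. Of the 13 Sm ring genes, 11 rose and 0 fell, with a median log2 change of 0.58 against -0.04 for all genes, among them SMEB (1.13 ± 0.13), SMF (1.09 ± 0.088) and SMD3A (0.90 ± 0.091). Of 8 U1 partners, 1 rose, U1A (0.67 ± 0.11). Of 9 U2 genes, 3 rose, namely U2A (0.29 ± 0.073), SAP49A (0.41 ± 0.092) and SF3A2 (0.38 ± 0.10). Of 14 tri-snRNP and helicase genes, CLO (0.66 ± 0.089) and PRP43B (0.49 ± 0.098) rose and PRP31 (-0.22 ± 0.087) fell. Of 10 SR protein kinase and SR-related genes, SRPK3A (0.93 ± 0.14), SR45 (0.36 ± 0.094) and AFC1 (0.33 ± 0.13) rose, while SR45A (-0.90 ± 0.12) and AFC2 (-0.26 ± 0.090) fell. Of 9 decay genes, RH6 (-0.75 ± 0.095) and XRN4 (-0.33 ± 0.10) fell and 0 rose. The U1 partners, at 12.5% called, were below the share of all genes called higher. So were the tri-snRNP and helicase genes, with 2 of 14 called higher, and the decay genes, with 0 of 9. In either direction, 21.4% of the tri-snRNP and helicase genes were called, against 46.1% of all genes. The decay genes, at 22.2% called, were near the share of all genes called lower.

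The groups differed in annotated features that the choice of genes did not use. The RefSeq annotation of TAIR10.1 gives the SR genes a median of 3.5 mRNAs, the LSM genes 1, the core genes 2 and all tested genes with an mRNA 1, so that the LSM genes were at the median of all. The median number of introns was 6 in the SR genes, 4 in the LSM genes and 8 in the core genes, and 4 in all tested genes with an mRNA. Of the 38, 16 overlap another annotated gene, a larger share than the 5927 of 19311 tested genes, or 30.7%. FPKM per gene do not separate these mRNAs, so a change in splicing of an SR gene is not measured here. Over the 10 group means of log2(FPKM + 1), the genes most like RSZ22A were AT3G04965 (Pearson r = 0.974), AT4G19150 (r = 0.965) and AT3G03940 (r = 0.960). The files give these no symbol and annotate them as a long non-coding RNA, an ankyrin repeat protein and a protein kinase. These r describe 10 means that share libraries and normalization, and AT3G04965 ranged from 0 to 5.25 FPKM.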

How the data were processed

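The authors deposited 10 tables of FPKM per gene, 1 per genotype and time, each with 2 libraries. Poly-A RNA was made into directional libraries with dUTP, per the labels' protocols. The submitters' processing notes name HISAT2 2.0.5 with featureCounts 1.5.0-p3 on the build TAIR10; the sources used here give no options, no strand setting and no tool for the FPKM. Multiplied by the deposited gene length, the deposited FPKM of a library were whole multiples of 1 step for 100% of values (tolerance 0.001 reads, largest distance 4.95e-05), which returned the reads. The denominators behind the deposited FPKM tracked size factors of the median-of-ratios kind across all 20 libraries, and were 0.889 to 1.18 times the recovered reads, so the tables share 1 normalization.

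Depth was 11.4 to 19.0 M reads. The 19311 of 33104 genes that reached an FPKM of 1 in 2 or more libraries were fitted as 10 group means of log2(FPKM + 1) with limma 3.58.1 in R 4.3.3 (eBayes with trend, 10 residual and 5.12 prior degrees of freedom). There were 18 contrasts, with Benjamini-Hochberg adjustment within each and a threshold of 0.05; differences and SE are on that scale, which understates folds of low genes. Count models were not the main test, since the values are FPKM. Pairs were tested by exact permutation within time. Steps were tested on simulated data. Alternatives were a pseudocount of 0.1, no filter, 2 other scalings, no trend, limma-voom on the recovered reads, the replicate block, a contrast's own libraries alone, each library left out in turn and, for the mean, leaving out the 4 ilp1-1 libraries of 4 and 8 h. The members, lists and tests were chosen with earlier results of these data known. Named are, in each comparison, the 4 highest and 4 lowest calls; the 8 genes of smallest adjusted p for the mean and 6 for Col-0 at 4 h have all their values given, and up to 3 genes of each further list are named, as is ILP1. Other genes are added where a count rests on them, or chosen after their values were seen. Coordinates are those of the files, whose 38 genes have the same start and end in TAIR10.1; mRNAs, introns and promoters come from RefSeq. Figures were drawn with matplotlib 3.10.9.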

Additional observations from a re-analysis of the deposited data

Results flagged for a closer look

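Each value here is the change from 0 h in ilp1-1 minus that in Col-0, on the log2(FPKM + 1) scale ± SE, from limma with adjustment over 19311 genes, and each was picked out because that difference passed the test. RSZ22A differed by 0.49 ± 0.12 (adjusted p = 0.0134) at 4 h and by -0.40 ± 0.12 (adjusted p = 0.0302) at 16 h, when its ilp1-1 libraries stood at 62.00 and 65.7 FPKM, against 66.2 and 74.8 at 0 h. PRMT5 differed by 0.61 ± 0.15 (adjusted p = 0.0103) at 16 h. RS40 differed by 0.49 ± 0.13 (adjusted p = 0.0163) at 8 h and by -0.44 ± 0.13 (adjusted p = 0.0239) at 30 h, so that its excess over Col-0 at 8 h had gone by 30 h. RS31A differed by 1.02 ± 0.27 (adjusted p = 0.0248) at 4 h, on changes of 1.38 in ilp1-1 and 0.36 in Col-0.

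RS41 differed by 0.48 ± 0.14 (adjusted p = 0.0472) at 4 h and 0.50 ± 0.14 (adjusted p = 0.0298) at 8 h. At 0 h it stood at 31.8 and 32.4 FPKM in Col-0 and at 29.2 and 25.1 in ilp1-1, the lower of the genotypes, and at 4 h at 36.9 and 31.6 and 39.3 and 41.9. LSM8 differed by -0.57 ± 0.16 (adjusted p = 0.0371) at 4 h. U2AF65A differed by -0.46 ± 0.14 (adjusted p = 0.0363) at 8 h, with 30.2 and 36.1 FPKM in Col-0 and 42.9 and 35.4 in ilp1-1 at 0 h, and 42.1 and 39.1 and 35.1 and 33.6 at 8 h.

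Several of these calls were lost when 1 library was left out. Such a fit has 1 library in a group, so a loss need not mean that the library left out set the value. Some differences, given in brackets, were then as large as in the full fit or larger. RSZ22A at 16 h was lost without ilp1-1 0 h library 2 (-0.31), ilp1-1 16 h library 1 (-0.36), Col-0 0 h library 1 (-0.32) or Col-0 16 h library 2 (-0.33). RS40 at 30 h was lost without ilp1-1 0 h library 1 (-0.43), ilp1-1 30 h library 1 (-0.41), Col-0 0 h library 1 (-0.29) or Col-0 30 h library 2 (-0.43). When scaled by total reads, RSZ22A at 16 h (-0.23), RS40 at 30 h (-0.33) and LSM8 at 4 h (-0.51) were not called. RS31A at 4 h was lost without ilp1-1 0 h library 2 (0.90), ilp1-1 4 h library 2 (0.87), Col-0 0 h library 1 (1.06), Col-0 0 h library 2 (0.98) or Col-0 4 h library 2 (0.83). RS41 at 4 h was lost without ilp1-1 0 h library 2 (0.38), ilp1-1 4 h library 1 (0.53), ilp1-1 4 h library 2 (0.44), Col-0 0 h library 1 (0.50), Col-0 0 h library 2 (0.47) or Col-0 4 h library 2 (0.37), and at 8 h without ilp1-1 0 h library 2 (0.40), ilp1-1 8 h library 2 (0.45), Col-0 0 h library 1 (0.52), Col-0 0 h library 2 (0.49), Col-0 8 h library 1 (0.55) or Col-0 8 h library 2 (0.46). LSM8 was lost without ilp1-1 0 h library 2 (-0.38), ilp1-1 4 h library 2 (-0.46), Col-0 0 h library 1 (-0.55), Col-0 0 h library 2 (-0.58), Col-0 4 h library 1 (-0.57) or Col-0 4 h library 2 (-0.56). U2AF65A was lost without ilp1-1 0 h library 1 (-0.33), ilp1-1 8 h library 1 (-0.50), ilp1-1 8 h library 2 (-0.43), Col-0 0 h library 1 (-0.34), Col-0 8 h library 1 (-0.41) or Col-0 8 h library 2 (-0.52).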

How the results depend on the processing

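Of 179 calls of the 38 genes over 18 comparisons, 81 passed under every alternative run for them, and 2 changed sign, both when scaled by total reads: LSM4 in the genotype mean (0.0567) and SCL30 at 30 h (0.0349). That scaling moved the median of all genes to 0.16 in the genotype mean, and to 0.23 at 16 h and 0.22 at 30 h. It gave 34 calls among the 38 in the mean (18 on the authors' scaling), and 15, 23, 27 and 30 between genotypes at 0, 4, 16 and 30 h (4, 9, 8 and 10), 21 from 0 h to 16 h in ilp1-1 (8), and 7 and 0 differences of changes at 16 and 30 h (2 and 1). Over all 19311 genes it called 12420 in the mean (11037 on the authors' scaling). Between genotypes it called 4829, 6935, 7934 and 8702 of them at 0, 4, 16 and 30 h (4292, 5900, 5343 and 6573). From 0 h to 16 h in ilp1-1 it called 9410 (8451). Differences of changes called at 16 and 30 h were 3091 and 3770 (2740 and 3252). Limma-voom gave 7 at 0 h, and 4937 over all genes. Without the trend there were 6 at 30 h and 2, 1 and 1 differences of changes at 4, 8 and 16 h, and without the filter 2 at 4 h. The libraries of a comparison alone, with fewer degrees of freedom, gave 1, 3 and 4 at 0, 16 and 30 h between genotypes, 4 and 4 in Col-0 at 16 and 30 h, 5 and 6 in ilp1-1, and 1, 1, 1 and 0 differences of changes at 4, 8, 16 and 30 h. Over all 19311 genes they gave 1565, 3514 and 3974 between genotypes at 0, 16 and 30 h. At 16 and 30 h they gave 6815 and 6341 in Col-0 and 6804 and 7774 in ilp1-1. Differences of changes were 1060, 2115, 2021 and 2180 at 4, 8, 16 and 30 h. The cause of these shifts was not tested.

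Leaving out 1 library at a time, where the lone library left is taken to vary like the others, gave 17 to 20 calls in the mean, 2 to 5, 5 to 6, 5 to 7, 3 to 6 and 4 to 8 between genotypes at the 5 times in order, 12 to 14, 12 to 16, 5 to 6 and 5 to 8 in Col-0 at 4, 8, 16 and 30 h, 14 to 17, 12 to 16, 5 to 8 and 7 to 14 in ilp1-1, 0 to 3, 0 to 3, 1 to 3 and 0 to 3 differences of changes, and 1 to 6 pairs. Each of these limma fits also called fewer of all genes tested than the full fit, so lower counts were not particular to the 38. The lowest counts between genotypes came without ilp1-1 0 h library 2, Col-0 4 h library 2, either Col-0 8 h library, ilp1-1 16 h library 2 and Col-0 30 h library 1. The lowest from 0 h in Col-0 came without Col-0 0 h library 1 or Col-0 8 h library 1 (8 h), Col-0 0 h library 1 (16 h) and Col-0 30 h library 1. Those in ilp1-1 came without ilp1-1 16 h library 1 and ilp1-1 0 h library 1. The fewest pairs were left without ilp1-1 16 h library 2. Replicate numbers do not pair the libraries: the correlation of same-numbered deviations over 45 pairs of groups was -0.148 to 0.126, and 1 was over 0.1. With the replicate block, 18 of the 38 were called in the mean, and 7 of the 179 calls were lost. With 11.4 to 19.0 M reads, SCL28, at 1 to 68 reads, and U2AF35B, at 42 to 111, are limited by depth.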
